A study of Homo sapiens with 4 samples.

Results

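The genes described here build the entry gate of the endoplasmic reticulum (ER) and the vesicle traffic between the ER and the Golgi apparatus. They were measured in HepG2, a human liver cancer line that the labels call hepatoblastoma, with 2 libraries from isoginkgetin-treated cells (20 µM, 24 h) and 2 from cells given DMSO, the solvent. Isoginkgetin, a biflavonoid from Ginkgo, is known to inhibit pre-mRNA splicing, and the series is titled for autophagic cell death. Polyadenylated RNA was sequenced without strand information. The deposited data are 1 table of the authors' own comparison, which holds only genes with an adjusted p under 0.05, so no value per library can be given and the depth per library is unknown. The table does not say which group is on top of its fold changes. They are read here as isoginkgetin over DMSO, and the opposite order would turn every direction below. The labels do not call the replicates separate cultures, and the p-values therefore cover a spread between libraries that may be technical only. In bulk RNA, fewer cells of a kind and less RNA per cell cannot be told apart.

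The members were chosen by gene name: names that begin with SEC and 2 digits, SRP and digits, TRAPPC, TMED, KDELR, SPCS, ARF and digits or ARFGAP, and 24 further names such as SSR1, COPA and LMAN1. The rule finds 80 genes among the 8727 in the authors' deposited table, 56 through a name beginning and 24 as an exact name. Because the table was itself selected on the adjusted p of this comparison, every member differed between the groups by construction, and all values below describe that comparison. The largest adjusted p of a member in the authors' deposited table is 0.0334, for SEC14L5, followed by 0.0138 for SRP9, and genes beyond 0.05 have no value here. Of the 80 names, 4 belong to no part of this machinery. SEC14L1, SEC14L4 and SEC14L5 encode lipid-binding proteins. SRP14-AS1 is called the antisense transcript here after its name in the table, and its current RefSeq symbol is SRP14-DT. The other 76 encode parts of the secretory machinery or their close relatives.

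Proteins that will be secreted or placed in a membrane enter the ER while they are being made. The signal recognition particle binds the signal sequence of the growing chain and hands the ribosome to its receptor, the SEC61 channel lets the chain through, and signal peptidase removes the signal. Cargo then leaves in vesicles with a COPII coat, while COPI vesicles, which need the GTPase ARF1, return escaped ER proteins and receptors from the Golgi. Tethers and SNAREs dock and fuse these vesicles. In liver cells this route carries the plasma proteins, and many of its genes are known targets of the unfolded protein response, which follows a load of unfolded protein in the ER.

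Most of the machinery was higher after isoginkgetin. Of the 80 members in the authors' deposited table, 67 were higher and 13 lower, and their median log2 fold change was 0.67. Over all genes listed there, 51.5% were higher and 48.5% lower, and the median was 0.21. At 2-fold or more 23 members were higher and 5 lower, beside 14.4% and 17.1% of all genes in the authors' deposited table. Without the SEC14L genes and the antisense transcript, 67 were higher and 9 lower. When all fold changes are lowered by the table's median of 0.21, the number 2-fold or more higher drops to 7. The number 2-fold or more lower then rises from 5 to 7, while 65 members keep a positive value. SEC22B, the last of the 7 higher members, has rank 912 by log2 fold change among the 8727 genes. At least 912 genes of the table thus pass the same centred cut, and 7 of 80 is no larger a share. The members' excess of 2-fold increases is therefore not seen after centring. The members were counted more deeply than most genes: their median mean normalized count was 3230, against 741 over the table. Among genes with a mean normalized count of at least 1000, 61 of 65 members were higher, beside 57.9% of all such genes in the authors' deposited table.

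**Figure D1:**
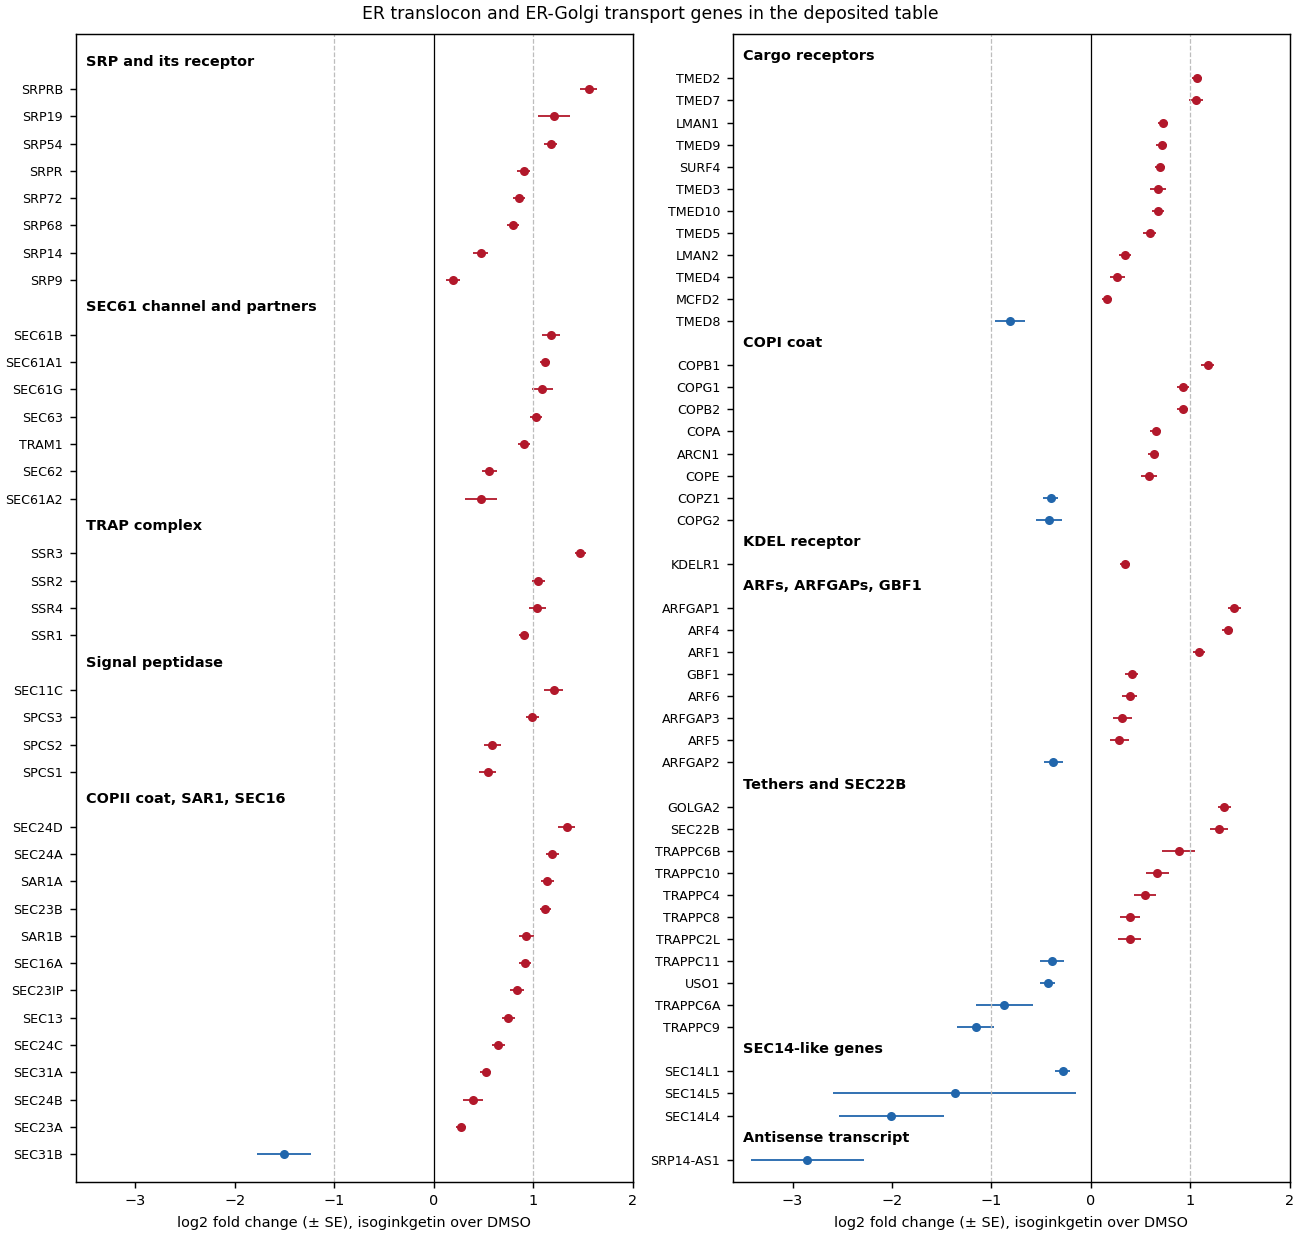
Log2 fold change of each of the 80 genes in the authors' deposited table, isoginkgetin over DMSO, grouped by role. Points are the fold changes, bars the standard error, dashed lines mark 2-fold. Every gene of ER entry, in the first 4 groups of the left panel, has a value above 0, and SEC31B, the tethers and the SEC14-like genes hold 8 of the 13 values below 0.

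**Figure D2:**
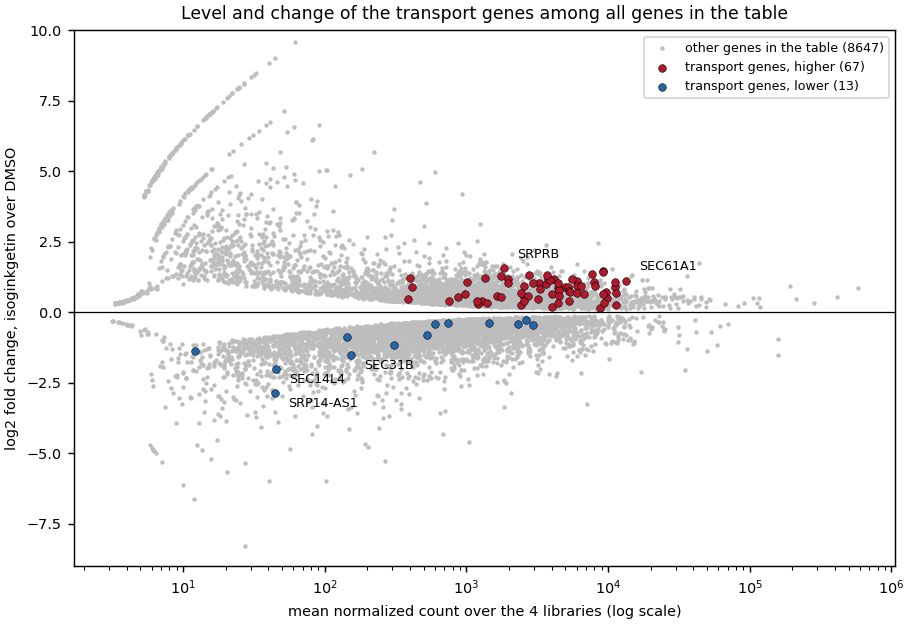
Mean normalized count over the 4 libraries (log axis) against the log2 fold change, isoginkgetin over DMSO, for all 8727 genes of the authors' deposited table. The 67 higher transport genes lie mostly at counts of 1000 and more, and the strongest decreases, SRP14-AS1 and SEC14L4, lie at counts of 44.5 and 45.0.

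Membership in the table can be set against the gene families themselves only for the name beginnings, since the exact names were all taken from it. RefSeq lists 77 protein-coding genes with these beginnings, and 55 of them (71.4%) are in the authors' deposited table, beside 43.6% of the 20024 genes that the p-values imply were tested. All 6 SRP genes, all 3 SPCS genes and all 3 ARFGAP genes are there, as are 8 of 11 TMED genes, 8 of 17 TRAPPC genes and 1 of 3 KDEL receptors. The 22 others are ARF3, KDELR2, KDELR3, SEC11A, SEC14L2, SEC14L3, SEC14L6, SEC16B, SEC22A, SEC22C, TMED1, TMED6, TMED7-TICAM2, TRAPPC1, TRAPPC2, TRAPPC2B, TRAPPC3, TRAPPC3L, TRAPPC5, TRAPPC12, TRAPPC13 and TRAPPC14. They have no value here, and whether they were tested is not known. The shares of 71.4% and 43.6% are therefore not like for like, and they were not matched for expression level.

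Targeting to the ER comes first in the route. All 6 protein subunits of the signal recognition particle and both subunits of its receptor were higher, and the median log2 fold change was 0.88 in the authors' deposited table. SRPRB, the membrane-spanning receptor subunit that holds the complex at the ER, had the largest increase of all 80 genes: its log2 fold change in the authors' deposited table is 1.55 (adjusted p 6.51e-72), with a standard error (SE) of 0.09. Split by that fold change, the table's mean normalized count of 1851 implies a mean of 2763 in isoginkgetin cells, against 940 in DMSO cells. Its partner SRPR, the subunit that meets the particle, was at 0.90 (SE 0.06) per the authors' deposited table. SRP54, which binds the signal sequence, was at 1.17 (SE 0.06, adjusted p 3.18e-75), and SRP19, which helps assemble the particle's RNA, at 1.21 (SE 0.16, adjusted p 2.85e-13) by the values of the authors' deposited table. The SRP68 and SRP72 pair followed with log2 fold changes of 0.80 and 0.85 in that table. SRP14 and SRP9, which form the domain that slows elongation of the chain, moved least, at 0.47 and 0.19 in the authors' deposited table, and the value of SRP9 turns to −0.018 when fold changes are centred on the table's median.

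The SEC61 channel was higher throughout. Its subunits SEC61B, SEC61A1 and SEC61G had log2 fold changes of 1.18 (SE 0.09), 1.11 (SE 0.05) and 1.09 (SE 0.11) according to the authors' deposited table, which lie within their combined SEs of each other. SEC61A1, the pore-forming subunit, has the highest mean normalized count of the 80 genes, 13431, which implies 18375 in isoginkgetin cells against 8487 in DMSO cells. Its adjusted p in the authors' deposited table is 1.24e-112. The less used copy SEC61A2 stood at 0.47 with an SE of 0.17 in the authors' deposited table. SEC63, which recruits the chaperone BiP to the channel, was at 1.03 (SE 0.06), TRAM1, a neighbour of the entering chain, at 0.91 (SE 0.06), and SEC62, which serves small secretory proteins, at 0.56 (SE 0.08) per the authors' deposited table.

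All 4 genes of the TRAP complex, which sits beside the channel and aids the entry of many signal sequences, were higher. SSR3, its gamma subunit, stood at 1.47 (adjusted p 4.46e-156, SE 0.05) by the values of the authors' deposited table, which is the smallest adjusted p of any member and rank 28 among the 8727 genes by p. The implied means of SSR3 are 13513 in isoginkgetin cells and 4875 in DMSO cells. SSR2, SSR4 and SSR1 were at 1.05, 1.04 and 0.91 in the authors' deposited table. Signal peptidase moved the same way in 4 of 4 genes. The catalytic subunit SEC11C was at 1.20 (SE 0.10, adjusted p 1.25e-35) according to the authors' deposited table, and the accessory subunits SPCS3, SPCS2 and SPCS1 at 0.99, 0.59 and 0.54. Taking these 4 groups as ER entry, 23 of 23 genes were higher and 11 of them by 2-fold or more, with a median of 0.99. After centring on the table's median, SRP9 is the only one of the 23 below 0.

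Export from the ER was higher in 12 of 13 COPII genes, with a median log2 fold change of 0.83. SEC24D and SEC24A, which pick the cargo of the coat, led with 1.33 (SE 0.08, adjusted p 5.74e-55) and 1.19 (SE 0.06, adjusted p 7.83e-75) per the authors' deposited table. SAR1A and SAR1B, the GTPases that start the coat, were at 1.14 (SE 0.06) and 0.93 (SE 0.08) in that table. SEC16A, the scaffold of the exit site, stood at 0.92, SEC23IP, a partner of SEC23, at 0.83 and SEC13, a subunit of the outer cage, at 0.75 in the authors' deposited table. SEC23B, the GTPase-activating subunit, was at 1.12 (SE 0.06), while its relative SEC23A was at 0.27 with an SE of 0.05 in the authors' deposited table. SEC24C was at 0.65, SEC31A at 0.52 and SEC24B at 0.40 in the authors' deposited table. SEC31B was the exception at −1.51 (SE 0.27, adjusted p 1.59e-08) by the values of the authors' deposited table, with a mean normalized count of 152.

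The receptors that load cargo into these vesicles were higher in 11 of 12 genes, and their median log2 fold change was 0.67, beside 0.99 for the 23 genes of ER entry. TMED2 and TMED7, of the p24 family of cargo receptors, were at 1.07 (adjusted p 2.01e-88, SE 0.05) and 1.05 (adjusted p 7.03e-47, SE 0.07) according to the authors' deposited table. The p24 relatives TMED9, TMED3, TMED10, TMED5 and TMED4 were at 0.71, 0.67, 0.67, 0.59 and 0.27 in that table. LMAN1, the lectin that exports coagulation factors V and VIII, was at 0.73 (SE 0.05, adjusted p 3.97e-46), while MCFD2, its partner in that task, was at 0.16 (adjusted p 0.00550, SE 0.05) per the authors' deposited table, a value that turns to −0.056 after centring on the table's median. SURF4, a receptor for soluble cargo, was at 0.70 and the lectin LMAN2 at 0.34 in the authors' deposited table. TMED8 was lower, at −0.81 (SE 0.15, adjusted p 2.77e-07) in that table.

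The COPI coat did not move as a block. COPB1, the beta subunit, was at 1.17 (SE 0.06, adjusted p 9.15e-74), COPG1 and COPB2 both at 0.92 (SE 0.06 each), COPA at 0.65, ARCN1, the delta subunit, at 0.63 and COPE at 0.58 in the authors' deposited table. The zeta subunit COPZ1 was lower, at −0.40 (SE 0.08, adjusted p 3.78e-07), as was COPG2, at −0.42 (SE 0.13, adjusted p 0.00297) by the values of the authors' deposited table. For COPZ1 the implied means are 2006 in isoginkgetin cells and 2653 in DMSO cells, and for COPB1 they are 7716 in isoginkgetin cells and 3421 in DMSO cells. KDELR1, a receptor that brings ER-resident proteins back in these vesicles, was at 0.34 (SE 0.05, adjusted p 6.06e-10) according to the authors' deposited table.

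Among the ARF GTPases, ARF4 and ARF1, which recruit the COPI coat, stood at 1.37 (adjusted p 2.89e-140, SE 0.05) and 1.08 (adjusted p 1.35e-72, SE 0.06) per the authors' deposited table. ARF6, which acts at the plasma membrane, and ARF5 were at 0.39 (SE 0.08) and 0.29 (SE 0.10) in that table. ARFGAP1, which switches ARF1 off on the Golgi, was at 1.44 (adjusted p 1.22e-118, SE 0.06) by the values of the authors' deposited table. The relatives of ARFGAP1 split, with ARFGAP3 at 0.32 (SE 0.10) and ARFGAP2 at −0.38 (SE 0.09, adjusted p 0.000157) according to the authors' deposited table. GBF1, the exchange factor that switches ARF1 on at the early Golgi, was at 0.41 with an SE of 0.06 in the authors' deposited table.

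**Figure D3:**
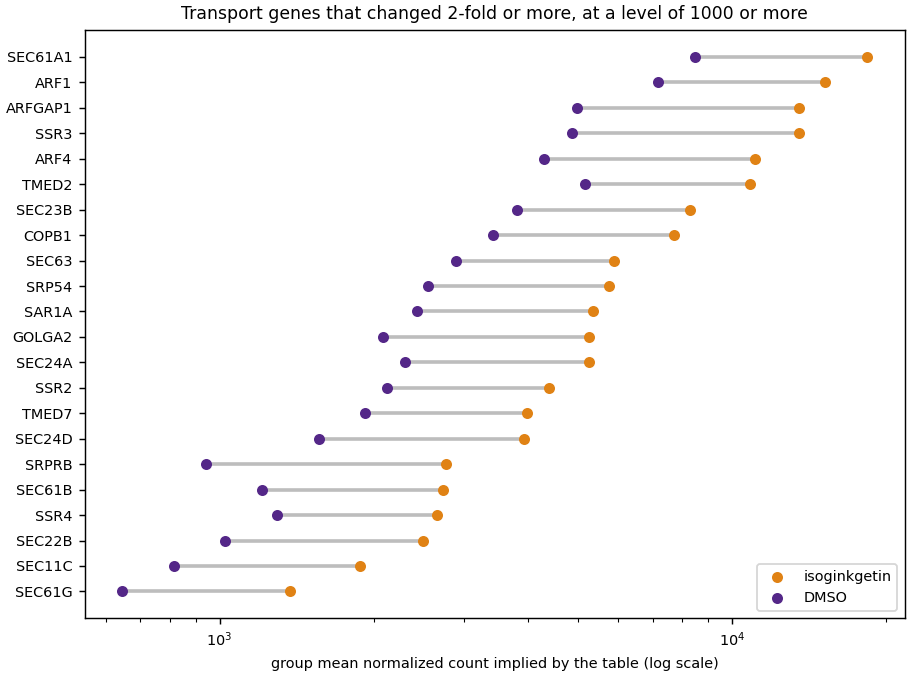
Mean normalized count of each group (log axis) as implied by the mean over the libraries and the fold change in the authors' deposited table, for the 22 members at a count of at least 1000 that changed 2-fold or more. Orange points are isoginkgetin and purple points DMSO, and the orange point lies to the right for every gene, from SEC61G (1375 against 646) to SEC61A1 (18375 against 8487).

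Tethers and fusion factors showed the least uniform picture, with 7 genes higher and 4 lower. That is 63.6% higher, beside 51.5% of all genes in the table. The Golgi matrix protein GOLGA2, known as GM130, was at 1.34 (SE 0.07, adjusted p 6.64e-91) per the authors' deposited table, while USO1, the tether p115 that binds it, was lower at −0.43 (SE 0.08, adjusted p 3.13e-08) in it. SEC22B, a SNARE of ER-Golgi vesicles, was at 1.29 (SE 0.09, adjusted p 3.83e-43) by the values of the authors' deposited table. RefSeq lists pseudogenes of SEC22B, and reads of such copies may have been divided among them. The TRAPP complexes, which activate Rab GTPases on these membranes, had 5 genes higher and 3 lower, a split not far from that of all genes in the table. TRAPPC6B was at 0.88 (SE 0.17), TRAPPC10 at 0.67 (SE 0.12), TRAPPC4 at 0.54 (SE 0.11), TRAPPC8 at 0.39 (SE 0.10) and TRAPPC2L at 0.39 (SE 0.12) according to the authors' deposited table. TRAPPC9, which with TRAPPC10 marks the TRAPPII form, was lower at −1.16 (SE 0.18, adjusted p 4.54e-10) per the authors' deposited table. TRAPPC11, which with TRAPPC8 marks the TRAPPIII form, was at −0.39 (SE 0.12, adjusted p 0.00307), and TRAPPC6A at −0.87 (SE 0.28, adjusted p 0.00196) by the values of the authors' deposited table.

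The 4 names outside the machinery were all lower. SEC14L4 was at −2.01 (SE 0.53, adjusted p 5.33e-05), SEC14L5 at −1.37 (SE 1.22, adjusted p 0.0334) and SEC14L1 at −0.29 (SE 0.07, adjusted p 0.000410) according to the authors' deposited table. SRP14-AS1 was at −2.85 (SE 0.56, adjusted p 1.95e-07) in that table, while SRP14 itself was higher. In the GENCODE 29 annotation these transcripts share 0 exonic bases. SEC14L4, SEC14L5 and SRP14-AS1 have mean normalized counts of 45.0, 12.1 and 44.5 in the authors' deposited table, the lowest of all members, and their fold changes are the least certain.

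Closely related genes of the same step often differed in how far they moved. SEC31A exceeded SEC31B by 2.03 on the log2 scale (SE 0.27), COPG1 exceeded COPG2 by 1.35 (SE 0.14) and TRAPPC6B exceeded TRAPPC6A by 1.75 (SE 0.33), each pair with opposite signs. In GENCODE 29, 56.2% of the exonic bases of TRAPPC6B are shared with AL109628.2 on the other strand. SEC31B shares 18.4% of its exonic bases with AL133352.1 on the same strand, a gene that has no value here. The SE of these differences joins the 2 deposited SEs as if independent, and the pairs were named with the fold changes known, so no test is given. ARFGAP3 and ARFGAP2 also had opposite signs, with a difference of 0.69 (SE 0.13). SEC23B exceeded SEC23A by 0.85 (SE 0.08), SEC24A exceeded SEC24B by 0.80 (SE 0.12) and SEC24D exceeded SEC24C by 0.68 (SE 0.11), with both genes of each pair higher. ARF4 exceeded ARF5 by 1.09 (SE 0.11), SEC61A1 exceeded SEC61A2 by 0.64 (SE 0.17), and SAR1A exceeded SAR1B by 0.21 (SE 0.10), the smallest gap of the 10 pairs. In 3 of the pairs the gene that moved less or fell also had a level per length at least 12.55 times lower. SEC31A had 1073 mean normalized counts per kb of exon and SEC31B 19.2, SEC61A1 had 2859 and SEC61A2 99.7, and COPG1 had 1823 and COPG2 145. The gap had the same direction but was smaller for ARF4 over ARF5 (4.58 times), SAR1A over SAR1B (2.41), SEC24A over SEC24B (2.12) and ARFGAP3 over ARFGAP2 (1.71). This was not general, since SEC23B and SEC23A had like levels per length, 1378 and 1270 counts per kb. SEC24D had the lower level, 277 against 751 for SEC24C, and so had TRAPPC6B, 91.3 against 154 for TRAPPC6A.

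**Figure D4:**
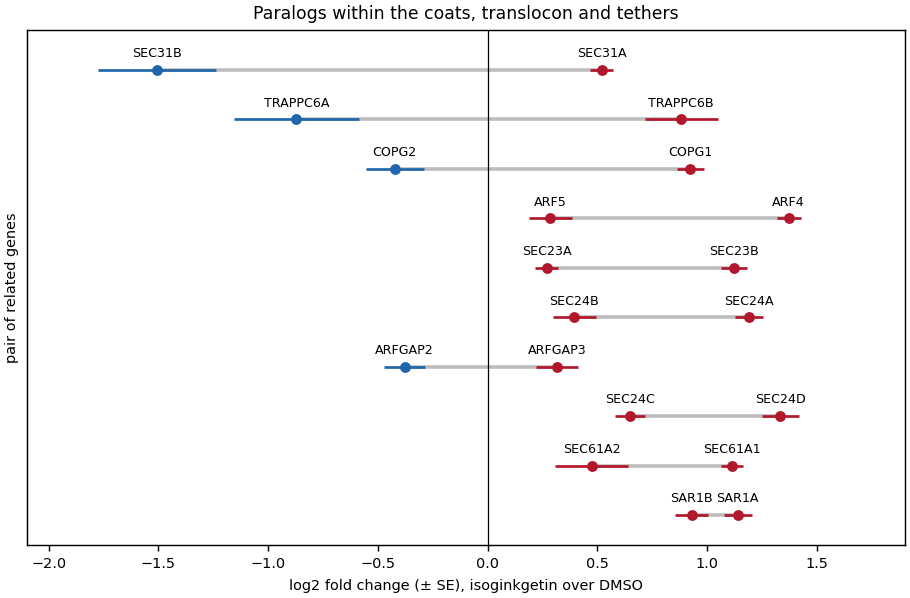
Log2 fold change, isoginkgetin over DMSO, of both genes of 10 pairs of relatives in the authors' deposited table, with bars for the standard error and pairs sorted by their difference. SEC31, TRAPPC6, COPG and the ARFGAP2 and ARFGAP3 pair straddle 0, and the SAR1 pair lies closest together.

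Promoters show what sequence the members share, and they are given because many genes of this route are known targets of factors of the unfolded protein response. RefSeq promoters (build GRCh38.p14, 250 bases before and 50 from each start, with 1 or more starts per gene) were found for 68 of the 80 members, in 90 windows. The element TGACGTGG, called UPRE core here after the site bound by XBP1 and ATF6, was searched on both strands, and on the other strand it reads CCACGTCA. It occurred in 13 of the 78 windows of higher members (16.7%), in 12 of 58 genes, and it was in 0 of the 12 windows of lower members. Over all 22199 windows of protein-coding genes 0.761% held it, and 1.26% of the 4378 windows of all higher genes in the table did. Among the listed genes of the same pathway that are no members, 5 of 89 windows (5.62%) held it. Counting only bases before the start, 9 windows of higher members held it (11.5%), beside 0.626% of all windows. The 12 genes are SSR3, SRP19, SEC24A, COPB1, ARF1, SSR4, COPB2, SEC16A, COPA, SEC62, GBF1 and SEC23A, and include 3 of the 6 higher COPI genes. Their log2 fold changes run from 0.27 to 1.47 in the authors' deposited table, with a median of 0.98. The median is 0.66 for the 56 members with a promoter and no match. Those 56 include 10 lower members, while all 12 with a match were higher, so the medians are not of like sets. SRPRB, which rose most, has no match in its windows.

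The stretches around the element are shown so that the common core and the differing flanks can be read, with the element in capitals, 16 bases on each side, the strand of the gene, 5′ to 3′. COPB2 carries it at 2 places. For SEC16A the bases after the start of this window lie in no GENCODE 29 transcript of the gene.
SSR3, chr3:156554143-156554182, minus strand: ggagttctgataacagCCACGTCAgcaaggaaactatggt
SRP19, chr5:112861159-112861198, plus strand: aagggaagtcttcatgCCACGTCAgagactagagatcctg
SEC24A, chr5:134648590-134648629, plus strand: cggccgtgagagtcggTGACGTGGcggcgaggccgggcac
COPB1, chr11:14499836-14499875, minus strand: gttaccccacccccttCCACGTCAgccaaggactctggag
ARF1, chr1:228082676-228082715, plus strand: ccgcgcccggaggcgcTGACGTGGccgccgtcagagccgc
SSR4, chrX:153794523-153794562, plus strand: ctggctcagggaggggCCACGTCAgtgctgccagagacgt
COPB2, chr3:139389627-139389666, minus strand: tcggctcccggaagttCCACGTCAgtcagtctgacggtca
COPB2, chr3:139389820-139389859, minus strand: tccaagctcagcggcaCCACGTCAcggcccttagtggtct
SEC16A, chr9:136484702-136484741, minus strand: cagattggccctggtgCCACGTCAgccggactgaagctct
COPA, chr1:160343222-160343261, minus strand: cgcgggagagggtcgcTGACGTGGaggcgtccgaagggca
SEC62, chr3:169966774-169966813, plus strand: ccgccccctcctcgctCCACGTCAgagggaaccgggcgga
GBF1, chr10:102245521-102245560, plus strand: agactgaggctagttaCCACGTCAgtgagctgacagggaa
SEC23A, chr14:39103216-39103255, minus strand: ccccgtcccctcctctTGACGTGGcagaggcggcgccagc

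The place of the element varied. In SEC24A it covers bases −179 to −172 before the start, in COPB1 bases −48 to −41 and in ARF1 bases −16 to −9, while in COPA and GBF1 it covers bases 6 to 13 of the transcript. The whole windows of SEC24A (chr5:134648535-134648834, plus strand) and COPB1 (chr11:14499762-14500061, minus strand) are given as the members of the COPII and COPI coats with a match and the largest increase, again with the element in capitals.
SEC24A: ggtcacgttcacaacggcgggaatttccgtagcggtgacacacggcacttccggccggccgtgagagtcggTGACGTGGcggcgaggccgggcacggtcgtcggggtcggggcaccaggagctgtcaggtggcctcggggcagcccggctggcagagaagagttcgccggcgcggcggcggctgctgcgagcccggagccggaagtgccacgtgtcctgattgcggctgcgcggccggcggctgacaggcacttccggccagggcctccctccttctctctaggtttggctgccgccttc
COPB1: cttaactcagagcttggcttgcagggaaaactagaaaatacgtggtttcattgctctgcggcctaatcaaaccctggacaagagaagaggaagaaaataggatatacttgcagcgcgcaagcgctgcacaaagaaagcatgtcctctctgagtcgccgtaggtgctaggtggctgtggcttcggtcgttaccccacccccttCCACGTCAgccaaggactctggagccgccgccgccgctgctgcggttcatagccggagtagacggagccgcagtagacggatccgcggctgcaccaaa

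Of the 6 other elements searched, 4 had no match in a member's window. The shorter CCACG, which the UPRE core contains, was in 64 of 78 windows of higher members (82.1%) and 7 of 12 of lower members, beside 43.1% of all windows, 51.6% of those of all higher genes and 56.2% of those of the listed pathway genes. The ER stress element ERSE, which is CCAAT and CCACG with 9 bases between, and ERSE-II, which is ATTGG and CCACG with 1 base between, were in 0 of the 90 member windows, beside 0.104% and 0.0676% of all windows. The cyclic AMP element TGACGTCA was in 0 of the 90, beside 2.26% of all, and TGATGCAA, a core of ATF4 sites, in 0, beside 0.676%. GTCACGTG, a core of sites of the TFEB family, was in 6 windows of higher members (7.69%) and 0 of lower ones. It was in 3.08% of all windows, 4.55% of those of all higher genes and 2.25% of those of the listed pathway genes. These matches are letters in a window and were not tested as sites.

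The wider pathway was mostly higher, with exceptions by complex. From 9 lists of genes that are no members, with 111 names, 83 are in the authors' deposited table, and 63 were higher (75.9%, beside 51.5% of all genes in the table) and 20 lower. Their median log2 fold change was 0.48, and 61 of the 83 stay above 0 after centring on the table's median, which turns RRBP1 and GOLIM4, named after their values were seen, below it. Oligosaccharyltransferase, which adds N-glycans beside the channel, was higher in all 7 of its 11 genes in the table, led by KRTCAP2 at 0.88 and OSTC at 0.87 in the authors' deposited table. The ER membrane protein complex, an insertase, was higher in 7 of 7 of 10 listed, with EMC2 at 0.90 and EMC6 at 0.82 in the authors' deposited table. Genes for inserting tail-anchored proteins were higher in 4 of 4 of 7 listed, with SGTA at 0.59 and UBL4A at 0.52 in the authors' deposited table. Partners of the translocon split into 7 higher and 3 lower of 11 listed. There HSPA5, the chaperone BiP, was at 1.75 (SE 0.05) and HYOU1, its co-chaperone, at 1.33 in the authors' deposited table, while TRAM2, a relative of TRAM1 outside the 2 largest, was at −0.96 and is named after its value was seen.

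Regulators and receptors of COPII export were higher in 11 and lower in 2 of 19 listed. The Golgi protein YIPF5 was at 1.36 (SE 0.09) and ERGIC1, of the ER-Golgi intermediate compartment, at −1.21 (SE 0.08) per the authors' deposited table. SNAREs and fusion factors were higher in 10 and lower in 2 of 17 listed, with RINT1, of the tether for vesicles returning to the ER, at 1.45 (SE 0.13) and the SNARE YKT6 at 1.25 (SE 0.09) by the values of the authors' deposited table. Golgins and stacking proteins were higher in 9 and lower in 1 of 12 listed, with GCC1 at 1.77 (SE 0.10) and BLZF1 at 1.5 (SE 0.15) in that table. The COG tether of the Golgi had 3 genes higher and 3 lower of 8 listed, with COG4 at −1.13 and COG2 at −0.82 in the authors' deposited table. Other regulators and effectors of ARF proteins had 5 genes higher and 9 lower of 16 listed, which is 35.7% higher beside 51.5% over the table, and a median of −0.42. Among them the exchange factor IQSEC1 was at −1.33 (SE 0.07) and ARL1, a Golgi GTPase, at 1.21 (SE 0.08) according to the authors' deposited table.

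**Figure D5:**
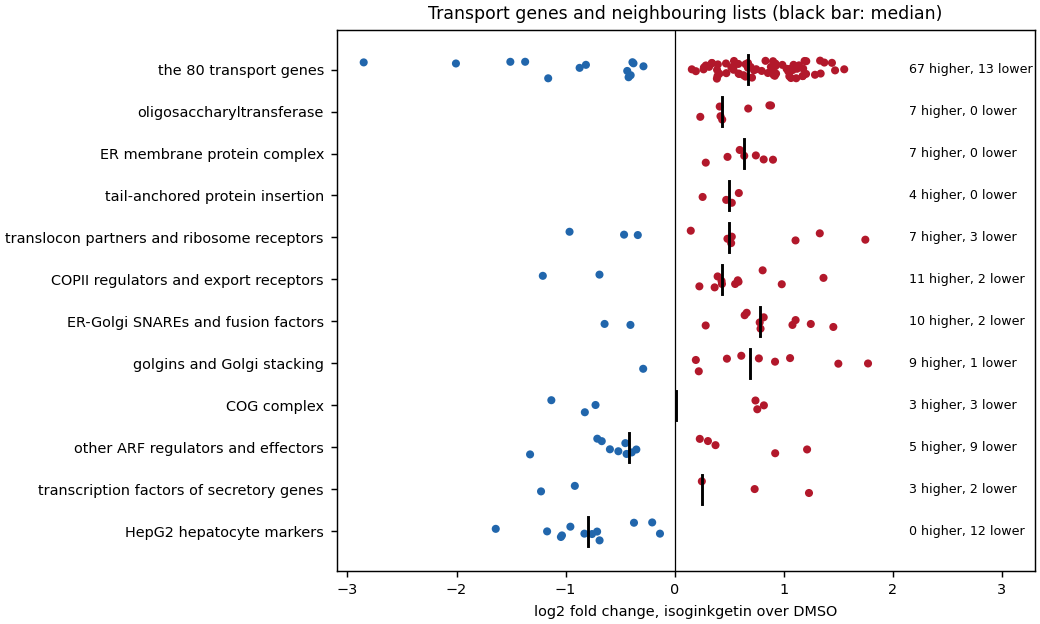
Log2 fold change, isoginkgetin over DMSO, of the 80 genes and of the genes of 11 lists in the authors' deposited table. Each point is a gene, the black bar is the median, and the counts at the right give genes higher and lower. Entry, glycosylation and fusion genes lie mostly to the right of 0, ARF regulators mostly to the left (5 higher, 9 lower), and all 12 hepatocyte genes to the left.

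Of 10 transcription factors known to act on secretory genes, 5 are in the table. CREB3, an ER-bound factor, was at 1.23 (SE 0.11) and CREB3L4, its relative, at −1.23 (SE 0.27) per the authors' deposited table. XBP1, whose spliced form binds the element described above, was lower at −0.92 (SE 0.06), ATF4 was at 0.73 (SE 0.05) and TFE3 at 0.25 in the authors' deposited table. The table counts genes and does not tell the spliced form of XBP1 from the unspliced one.

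The genes of liver cells moved the opposite way. Of 13 hepatocyte genes that check the label of the line, 12 are in the authors' deposited table, with mean normalized counts that reach 157429 for APOB, so the line shows the markers of its label. All 12 were lower, beside 48.5% of all genes in the table. Their median was −0.79 on the log2 scale, beside 0.21 over the table. Among them the plasma proteins FGA and AHSG were at −1.64 (SE 0.05) and −1.17 (SE 0.05) by the values of the authors' deposited table. ALB has no value here. The part of this shift in the result for the transport genes was not tested.

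Some members share exons with other genes. In GENCODE 29, 42 of the 80 genes share exonic bases with another gene, 35 of them with a gene on the opposite strand, whose reads these libraries cannot tell apart, and 16 with a gene on the same strand. The largest shares with the opposite strand were 56.2% of the exonic bases of TRAPPC6B, with AL109628.2, 50.7% of those of SPCS1, with NEK4, and 42.9% of those of SEC24C, with AC022400.8. These 3 partners have no value here, and whether they were expressed is not known. Of the 35 members, 14 have an opposite-strand partner in the authors' deposited table, and for 6 of these, which are COPA, MCFD2, SEC61A1, SPCS1, TRAPPC2L and TRAPPC4, a partner moved in the other direction. The largest share among the 6 was 10.6% of TRAPPC4, with SLC37A4, which was at −1.70 in the authors' deposited table. ARF5 shares 21.9% with GCC1, which was higher as ARF5 was. On the same strand, ARFGAP3, SEC14L1 and SRPRB have a partner that moved in the other direction. SRPRB shares 2.68% of its exonic bases with TF, at −0.71 in the authors' deposited table. On the opposite strand SRPRB shares 9.11% with RAB6B, which was higher as SRPRB was, at 1.23 in that table. How far shared reads set these values was not tested.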

How the data were processed

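RNA of HepG2 cells was sequenced in 2 isoginkgetin and 2 DMSO libraries, grouped by their titles, with dose and time from the design text. Per the submitters' processing notes, featureCounts and STAR 2.7.0 were used, with hg19 and mm10 as builds; the annotation and the handling of shared reads are not stated. The authors deposited 1 table whose headers are those of DESeq2 results. Its deposited mean normalized count is a signal averaged over the libraries. The log2 fold change and its SE are the authors' deposited values on the log2 scale. Each gene also has the authors' raw and adjusted p-value.

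The number of genes tested, 20024, was recovered as the median of adjusted p times rank over p. No count model was possible without values per library, so no test was added and members are described by counts and medians beside all genes. Members, roles, lists, motifs and pairs were chosen with earlier results of these data known. Every member is named; SE and adjusted p go with the largest changes and the decreases of each role, and the 2 largest changes of each list are named. Implied group means assume equal groups and the fold change as a ratio of means. The fold changes look shrunken, and undoing this under a normal prior was tried. Names were matched with RefSeq (GRCh38.p14) and exon lengths taken from GENCODE 29; no hg19 coordinate was used. For 14 of 15 matches of the UPRE core, all but that of SEC16A, the bases after the start lie in a GENCODE 29 transcript of the gene. The 15 matches count each COPB2 place in 2 overlapping windows. The recovery of the number tested, the undoing of shrinkage and the motif search were tested on simulated data. Python 3.11.15, pandas 2.3.3 and scipy 1.17.1 were used.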

Additional observations from a re-analysis of the deposited data

How the results depend on the processing

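No paired analysis was possible because the table holds no values per library, and for the same reason no library could be left out. The count of 67 higher members held under each alternative within 1.5 times (47 to 67). The count of 13 lower members was 6 with Bonferroni and 7 at 1.5-fold or more. The 5 members at least 2-fold lower became 3 with Bonferroni, 2 with a mean normalized count minimum of 100 and 2 without the SEC14L genes and the antisense transcript, the last an alternative chosen after seeing the data. Centring on the table's median left 7 of the 23 members at 2-fold or more higher. As a share of the 80 members this is no larger than that of all genes in the table. Centring raised the number 2-fold or more lower from 5 to 7, and turned MCFD2 to −0.056 and SRP9 to −0.018. The median of 0.67 became 0.77 at an adjusted p under 0.001, 0.87 with Bonferroni, 0.92 at 1.5-fold or more and 0.46 after centring, where each filter keeps fewer genes. At 1.5-fold or more 36 of the 55 genes of the named families remained. The share of all genes in the table that pass this cut is not given here. Undoing the shrinkage can only enlarge a fold change and cannot change its sign, so it does not test the directions. It moved SEC14L5 most, from −1.37 to −6.57. An adjusted p under 0.001 kept 70 of the 80 members. By p, TMED4, the last of the 70, has rank 5783 among the 8727 genes. TRAPPC6A, the first member lost, has rank 6142, and the number of all genes that pass lies between these ranks. Depth per library is unknown. Low counts limit SEC14L4, SEC14L5 and SRP14-AS1.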
